A study of Mus musculus with 21 samples.

Results

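The genes described here are 10 genes that mark the endothelium, the layer of cells that lines blood vessels. They were chosen by name, at a time when earlier results of these data were known: Pecam1, Cdh5, Esam, Cldn5, Kdr, Tek, Tie1, Eng, Emcn and Vwf. All of their probes were followed, which made 15 of the 45126 probes of an Illumina bead array. Mouse prostate tumours from the anterior prostate gave 21 arrays in a study of the ETS factor ETV4 in tumours with PI3-kinase and RAS signalling both active. The genotype NP had 8 arrays. The genotype NPK had 8 arrays with no stage in the labels, 3 arrays labelled 1Month, an early stage, and 2 labelled 3Month, a late stage. The alleles behind NP and NPK, the promoter or Cre that induces them and the age of the animals are not given in the sources used here, and the treatment field of every sample reads as not applicable. Whether each sample came from its own animal is not settled by the labels, so the p-values reflect spread among the samples, which may be technical.

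Endothelial cells are held to each other by adhesion molecules and tight junctions, and they follow growth signals through a small set of receptor tyrosine kinases. VEGF acts through Kdr to drive sprouting, angiopoietins act through Tek to steady or loosen vessels, and BMP and TGF-beta ligands act on the same cells with Eng as a co-receptor. Tumours need a blood supply, and endothelial transcripts in whole tumour RNA are widely used to follow it. A change in the number of endothelial cells and a change in RNA per endothelial cell cannot be told apart in such bulk samples.

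Many endothelial genes are known to be bound by ETS factors, whose core site is GGAA, so the promoters are shown with that core in capitals. It reads TTCC where it lies on the other strand. Of the 10 genes, 6 had a promoter in the RefSeq table (GRCm38.p6): Cldn5, Kdr, Tek, Tie1, Eng and Emcn. Pecam1, Cdh5, Esam and Vwf had no entry. The core occurred in the 250 bases before the start site of 5 of the 6 genes and in 93.4% of all 32851 promoters, where the median was 3 sites. There were 7 sites in Tie1, 4 in Kdr, 4 in Emcn, 3 in Eng, 2 in Tek and 0 in Cldn5. The longer form CAGGAAG, which holds the core, was found in Emcn alone (1 of 6, against 10.8% of all promoters), and CCGGAAG in 0 of 6 (6.91%). The SOX motif AACAAT was found in Tek and Emcn (2 of 6, against 9.42%), and TATAAA in 0 of 6 (12.4%). Both strands were searched for every motif. These matches describe letters only and do not show binding. The promoter of Tie1 (chr4:118489850-118490099, minus strand) has the most cores, that of Emcn (chr3:137340828-137341077, plus strand) carries the longer ETS form and the SOX motif, and that of Cldn5 (chr16:18776597-18776846, plus strand) has no core.
Tie1: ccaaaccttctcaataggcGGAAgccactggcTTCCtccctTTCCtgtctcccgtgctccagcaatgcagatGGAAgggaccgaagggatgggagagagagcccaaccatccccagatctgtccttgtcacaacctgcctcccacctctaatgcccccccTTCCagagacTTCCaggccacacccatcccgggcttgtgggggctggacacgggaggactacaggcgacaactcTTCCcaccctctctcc
Emcn: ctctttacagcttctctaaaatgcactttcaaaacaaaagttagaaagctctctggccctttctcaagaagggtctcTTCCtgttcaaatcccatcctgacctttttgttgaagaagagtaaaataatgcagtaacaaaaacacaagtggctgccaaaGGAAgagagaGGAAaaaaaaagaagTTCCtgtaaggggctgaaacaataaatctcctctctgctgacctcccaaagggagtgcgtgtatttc
Cldn5: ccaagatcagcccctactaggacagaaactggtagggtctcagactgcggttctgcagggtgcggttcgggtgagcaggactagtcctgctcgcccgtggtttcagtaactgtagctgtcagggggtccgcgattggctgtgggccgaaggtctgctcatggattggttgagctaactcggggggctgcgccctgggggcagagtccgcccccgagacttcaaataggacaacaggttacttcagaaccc

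Values are log2 normalized intensities. Because probes differ in brightness, a level is compared between samples and never between genes. A probe was called detected where background noise would reach its intensity with a probability under 0.01. The number of probes detected was 19063 to 20405 per array in NP, 15855 to 18226 in NPK, 19458 to 20138 at 1 month and 19489 to 19600 at 3 months. Of the 15 probes, 12 were detected on at least 3 arrays and were tested. The remaining 3, the third probe of Pecam1 and the second probes of Kdr and Vwf, were detected on 0 arrays. For 8 of the 10 genes the brightest probe was detected on all 21 arrays. The exceptions were Tie1, with 17 arrays, and Kdr, with 5. Luminal epithelial genes, which mark the tissue named in the labels, had mean levels of 11.6 to 12.5 in NP and 11.2 to 11.9 in NPK. The closest replicates were NP 4 and 5 (SD of log2 differences 0.130, against 0.312 for the next pair), which were counted as 1 sample, so n was 7 for NP, 8 for NPK, 3 at 1 month and 2 at 3 months. The number of arrays limits the precision, above all at 3 months.

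The comparison of NPK with NP asked how the genotypes differ. The endothelial genes stood higher in NPK: 9 of 10 passed the test in that direction, 0 fell and Cldn5 did not pass (limma, adjusted p under 0.05 over all probes tested). Over all genes, 14.7% were called higher and 17.9% lower, and over all probes 13.4% were called higher. The median log2 change of the 10 genes was 0.93, with a range of 0.35 to 1.38, against -0.01 for all 12570 genes. Kdr was below detection in both genotypes, so 8 of the 9 calls compare measured levels. The months were compared to ask about stage, and there 0 of the 10 genes passed.

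**Figure D1:**
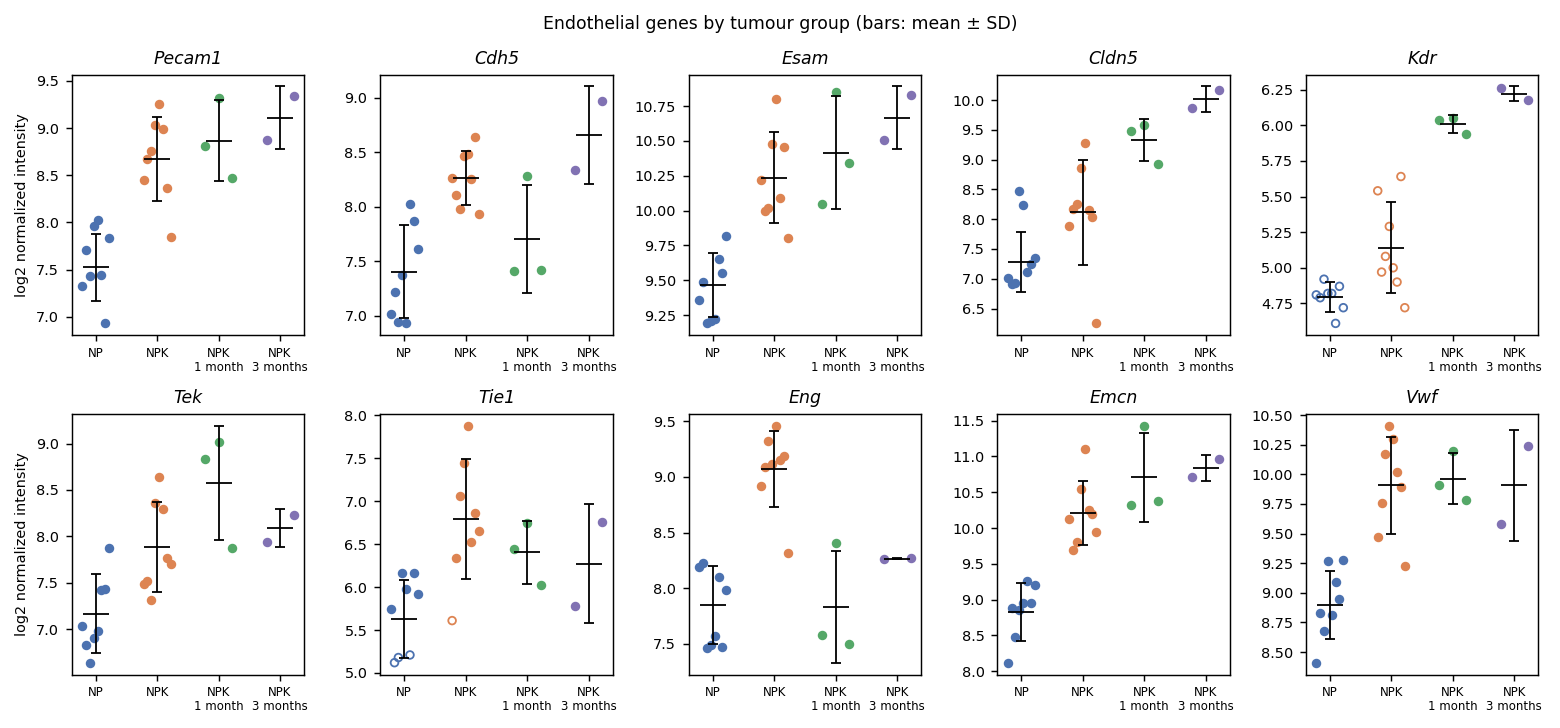
Log2 normalized intensity of the brightest probe of each endothelial gene on every array (points; filled where detected, open where not) in NP, NPK, NPK at 1 month and NPK at 3 months, with the mean and SD over samples as bars; replicates 4 and 5 of NP are drawn as 2 points but count as 1 sample. Eng and Emcn show no overlap between NP and NPK, and the Kdr probe is detected on the 5 arrays labelled by month alone, whose background noise was lowest.

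Pecam1 encodes CD31, an adhesion molecule at the contacts between endothelial cells. Its lowest, median and highest levels were 6.93, 7.44 and 8.03 in NP and 7.85, 8.72 and 9.26 in NPK. It read 8.81, 9.32 and 8.47 at 1 month and 8.87 and 9.34 at 3 months. The NPK range overlapped that of NP through NPK replicate 8, while all 5 month-labelled samples lay above every NP sample. The mean was 2.21-fold higher in NPK than in NP (log2 change 1.15 ± 0.20 SE, limma adjusted p = 0.000391). The dimmer second probe moved less, by 0.40 ± 0.25 SE, and did not pass (adjusted p = 0.235), so the probes disagreed on the call. On the chips of the barcode series that held both genotypes (NP replicates 1 to 5 and NPK replicates 6 to 8) the brightest probe changed by 0.79 (adjusted p = 0.11).

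Cdh5 encodes VE-cadherin, the cadherin of endothelial adherens junctions. From lowest over median to highest, its levels were 6.93, 7.22 and 8.02 in NP and 7.93, 8.25 and 8.64 in NPK. It read 7.41, 8.28 and 7.42 at 1 month and 8.34 and 8.97 at 3 months. The NP samples were themselves spread: replicates 6 to 8 averaged 7.83 and replicates 1 to 5 averaged 7.08, on separate chips. Cdh5 was 1.81-fold higher in NPK than in NP (0.86 ± 0.19 SE, limma adjusted p = 0.00219). Its second probe, detected on 3 of 8 NP arrays, was at least 1.91-fold higher (adjusted p = 0.00327). The change lost its call under median scaling (0.37, adjusted p = 0.156) and without NP replicates 1 to 5 (0.43, adjusted p = 0.161).

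Esam encodes an adhesion molecule of endothelial tight junctions that platelets also carry. The lowest, median and highest values were 9.19, 9.49 and 9.82 in NP and 9.80, 10.15 and 10.80 in NPK. It read 10.05, 10.85 and 10.34 at 1 month and 10.51 and 10.83 at 3 months. The genotypes met at one point only, where NPK replicate 8 fell just under NP replicate 8. The rise in NPK was 1.70-fold (0.77 ± 0.16 SE, limma adjusted p = 0.0013). It did not pass under median scaling (0.30, adjusted p = 0.183) or without NP replicates 1 to 5 (0.56, adjusted p = 0.0655).

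Cldn5 encodes claudin-5, the main claudin of endothelial tight junctions. Levels (lowest, median, highest) were 6.91, 7.12 and 8.48 in NP and 6.25, 8.16 and 9.28 in NPK. It read 9.48, 9.59 and 8.93 at 1 month and 9.86 and 10.17 at 3 months. The lowest NPK sample, replicate 8, lay below every NP sample, and the highest NP values belonged to replicates 4 and 5. The change between genotypes was 0.84 ± 0.33 SE with a limma adjusted p of 0.0557. It passed without NPK replicate 8 (1.10, adjusted p = 0.0021), without NP replicates 4 and 5 (1.02, adjusted p = 0.0218) and with a background offset of 50 (0.74, adjusted p = 0.0481). All month-labelled samples except replicate 3 at 1 month stood above every NPK sample.

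The receptors followed. Kdr encodes the main VEGF receptor of endothelial cells. Its brightest probe was detected on 0 of 8 NP arrays and 0 of 8 NPK arrays, on 3 of 3 arrays at 1 month and on 2 of 2 at 3 months. It read 6.04, 6.05 and 5.94 at 1 month and 6.26 and 6.18 at 3 months. Its values not well above background ran from 4.61 to 4.92 in NP and from 4.72 to 5.64 in NPK. The limma adjusted p of 0.0409 between the genotypes therefore set 2 levels not well above background against each other, and no fold is given. That call was lost in 9 of 15 fits that left out 1 sample: without NP replicates 1, 2, 4 with 5, 6, 7 or 8, or NPK replicates 1, 4 or 7 (changes of 0.28 to 0.36, adjusted p of 0.0521 to 0.0805). It was lost with chip as a random block too (0.33, adjusted p = 0.196). Among all alternative fits, those with a sample left out included, the call held in 14 of 34.

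Tek encodes TIE2, the angiopoietin receptor. Measured levels, as lowest, median and highest, were 6.64, 7.03 and 7.87 in NP and 7.31, 7.74 and 8.64 in NPK. It read 8.83, 9.02 and 7.88 at 1 month and 7.94 and 8.23 at 3 months. The genotypes overlapped broadly, with NP replicates 6 to 8 inside the NPK range. Tek was 1.65-fold higher in NPK (0.72 ± 0.23 SE, limma adjusted p = 0.0233). That call was lost without NP replicate 3 (0.63, adjusted p = 0.0519), without NP replicates 1 to 5 (0.31, adjusted p = 0.468) and under median scaling (0.24, adjusted p = 0.432). With chip as a random block it was lost as well (0.69, adjusted p = 0.128), as it was with the seminal vesicle and muscle covariates (0.56, adjusted p = 0.217), without NPK replicates 1 to 5 (0.75, adjusted p = 0.0851) or 6 and 7 (0.67, adjusted p = 0.0526), and without the 5 NPK samples rich in seminal vesicle transcripts (0.78, adjusted p = 0.0835).

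Tie1 encodes the partner receptor of TIE2, which modulates angiopoietin signalling. Its lowest, median and highest levels were 5.12, 5.74 and 6.16 in NP, where 5 of 8 arrays detected it, and 5.61, 6.75 and 7.88 in NPK, where 7 of 8 did. It read 6.44, 6.75 and 6.02 at 1 month and 5.78 and 6.76 at 3 months. NPK replicate 1, itself below detection, was the only NPK sample inside the NP range. The rise in NPK was 2.24-fold (1.17 ± 0.28 SE, limma adjusted p = 0.00415). With chip as a random block it had adjusted p = 0.0552 (change 1.13), and without NP replicates 1 to 5 adjusted p = 0.0629 (change 1.03).

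Eng encodes endoglin, the co-receptor for BMP and TGF-beta ligands, which rises on growing vessels. From lowest over median to highest, its levels were 7.46, 7.98 and 8.23 in NP and 8.32, 9.13 and 9.46 in NPK. It read 7.58, 8.41 and 7.50 at 1 month and 8.26 and 8.27 at 3 months. The NPK values all exceeded the NP values, which held for 2.88% of all genes and for 2 of the 10, Eng and Emcn. Eng was 2.33-fold higher in NPK (1.22 ± 0.18 SE, limma adjusted p = 8.79e-05). On the barcode series that held both genotypes the change was 1.03, with adjusted p = 0.057.

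Emcn encodes endomucin, a sialomucin of veins and capillaries. The lowest, median and highest values were 8.12, 8.91 and 9.26 in NP and 9.70, 10.16 and 11.11 in NPK. It read 10.32, 11.43 and 10.38 at 1 month and 10.71 and 10.97 at 3 months. No NPK sample of any stage reached down to the NP range. Emcn had the largest change of the 10 between the genotypes, 2.60-fold (1.38 ± 0.22 SE, limma adjusted p = 0.00017).

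Vwf encodes von Willebrand factor, a clotting protein that endothelial cells and platelets store and release. Levels (lowest, median, highest) were 8.41, 8.95 and 9.28 in NP and 9.23, 9.96 and 10.41 in NPK. It read 9.91, 10.20 and 9.78 at 1 month and 9.58 and 10.24 at 3 months. The NPK replicate 8, at 9.23, was the 1 NPK sample that fell inside the NP range. The rise in NPK was 2.01-fold (1.01 ± 0.18 SE, limma adjusted p = 4e-04).

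**Figure D2:**
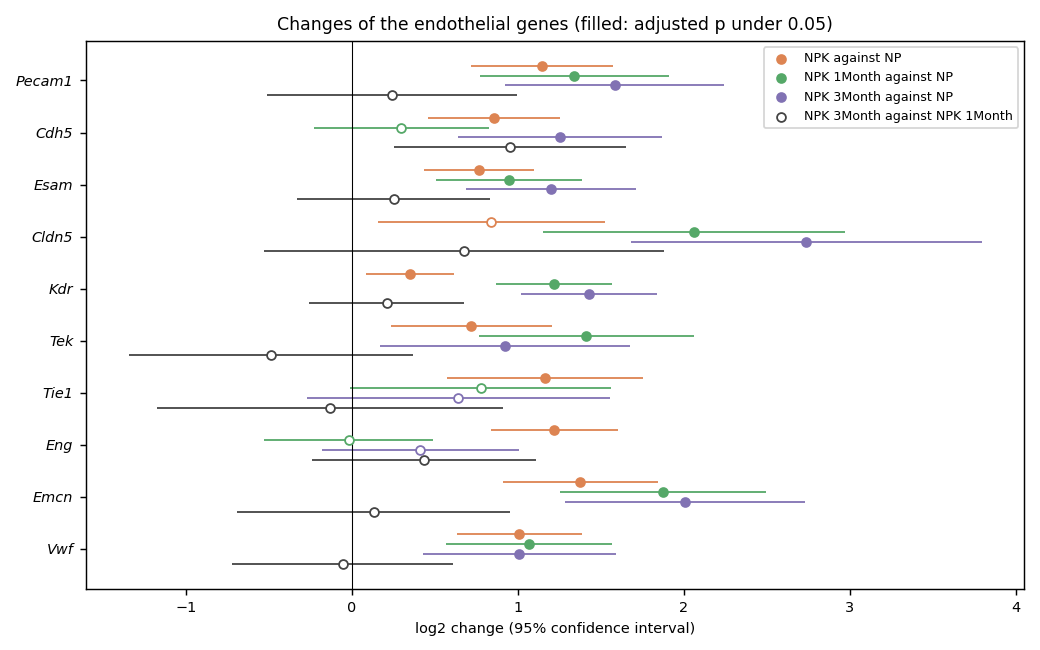
Log2 change of each endothelial gene (points, with the 95% confidence interval as lines) for NPK, NPK at 1 month and NPK at 3 months against NP, and for 3 months against 1 month; filled points had a limma adjusted p under 0.05. The genotype contrast passed for 9 of 10 genes, the contrast between months for 0, and Eng is the gene whose changes against NP were 1.22 in NPK and -0.02 at 1 month.

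Set against NP, the month-labelled NPK tumours gave a related but uneven picture. At 1 month 7 of 10 genes were higher (all genes 17.8%) and at 3 months 8 of 10 (all genes 23.5%), with 0 lower in both. Both counts include Kdr, whose probe met the detection filter only through the month-labelled arrays. All 3 comparisons with NP use the same NP samples, so their values stand side by side as descriptions. Cldn5 was 1.79-fold, 4.17-fold and 6.67-fold the NP mean in NPK, at 1 month and at 3 months, with limma adjusted p of 0.0557, 0.00133 and 0.000253. Emcn was 2.60-fold, 3.67-fold and 4.02-fold (adjusted p = 0.00012 at 1 month and 0.000126 at 3 months). Pecam1 was 2.53-fold at 1 month (adjusted p = 0.000974) and 3.00-fold at 3 months (adjusted p = 0.00051), but its second probe passed in neither month (0.65, adjusted p = 0.132, and 0.79, adjusted p = 0.104). These adhesion and surface genes had their highest means at 3 months.

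Esam was 1.93-fold the NP mean at 1 month and 2.29-fold at 3 months (limma adjusted p = 0.00196 and 0.000626). Vwf was near 2-fold in every NPK group, at 2.09-fold and 2.01-fold in the months (adjusted p = 0.00213 and 0.00642). Kdr was at least 1.39-fold higher at 1 month and at least 1.61-fold higher at 3 months (adjusted p = 3.61e-05 and 1.26e-05), as bounds, since NP was not well above background. Its probe was tested only because the month-labelled arrays detected it, so these p-values cannot serve as support for a rise there. Kdr was the gene of the 10 whose detection separated the month-labelled arrays from all others, but the intensity needed for detection differed between arrays. NPK replicate 1, at an intensity of 39.9 with a noise SD of 26.1, counted as undetected. Replicates 1 and 2 at 1 month, at 34.1 and 35.8 with noise SDs of 8.59 and 8.60, counted as detected. Tek was 2.66-fold at 1 month (adjusted p = 0.00176) and 1.90-fold at 3 months (adjusted p = 0.0431). Cdh5 was 1.23-fold at 1 month, which did not pass (adjusted p = 0.369), and 2.38-fold at 3 months (adjusted p = 0.002). Tie1 passed in neither month (changes of 0.78 and 0.64, adjusted p = 0.11 and 0.241). Eng did not pass either, with changes of -0.02 (95% interval -0.53 to 0.49, adjusted p = 0.956) and 0.41 (-0.18 to 1.00, adjusted p = 0.244).

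The calls at 3 months rest on 2 samples. Without replicate 2 at 3 months the count fell from 8 to 5, with Cdh5 (0.94, limma adjusted p = 0.0695), Vwf (0.68, 0.159) and Tek (0.78, 0.235) lost. Tek was lost as well without replicate 1 at 3 months (change 1.07). It was also lost without NP replicate 1, 2, 3 or 4 with 5 (0.83 to 0.90, limma adjusted p = 0.0598 to 0.0682). The Tek call did not hold either under median scaling (0.80, 0.0916), without the detection filter (0.92, 0.0644), with array weights (1.03, 0.0574) or with the tissue covariates (0.85, 0.065). At 1 month the count was 7 whichever sample was left out. With the seminal vesicle and skeletal muscle levels as covariates it was 1, Kdr. Those lists moved with the group: the mean level of 8 seminal vesicle genes was 4.88 to 8.16 in NP and 11.0 to 14.5 at 1 month, and that of 6 skeletal muscle genes was 5.75 to 7.54 and 9.99 to 10.7. These ranges did not overlap between the groups, so this fit cannot part tissue from group. The part of these tissues in the result was not tested. The month-labelled arrays share a chip that holds no other group, so chip and group cannot be told apart in their contrasts with NP and NPK.

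Directly between NPK without a stage and the months, most of the 10 genes did not pass. Against 1 month 2 passed (all genes 20.3%, either direction): Eng was 2.36-fold higher in NPK (1.24 ± 0.24 SE, limma adjusted p = 0.00135) and Kdr at least 1.05-fold lower (adjusted p = 0.00121). Against 3 months 3 passed (all genes 38.1%): Eng was 1.75-fold higher in NPK (0.81 ± 0.28 SE, adjusted p = 0.0301), Cldn5 was 3.73-fold lower (-1.90 ± 0.50 SE, adjusted p = 0.0058) and Kdr at least 1.21-fold lower (adjusted p = 0.000257). Both Kdr tests carry the limit that its probe met the detection filter only through the month-labelled arrays. Eng against 3 months was lost under median scaling (0.45, limma adjusted p = 0.224), array weights (0.79, 0.118) and the tissue covariates (0.55, 0.159). Its change was 0.80 without replicate 1 at 3 months and 0.81 without replicate 2, and that of Cldn5 was -1.74 without replicate 2. These calls did not hold, with 1 sample left at 3 months. Cldn5 against 1 month had a change of -1.22 with adjusted p = 0.0503, which passed without NPK replicate 4 (-1.33, 0.0379), 5 (-1.39, 0.0196) or 8 (-0.96, 0.0376). Cdh5 against 1 month passed without replicate 2 at 1 month (0.85, adjusted p = 0.0493), and Tek without replicate 3 (-1.04, adjusted p = 0.0438).

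The group means can be placed in order. For Pecam1, Esam, Emcn, Cldn5 and Kdr the order was NP, NPK, 1 month, 3 months. Vwf followed NP with NPK, 3 months and 1 month within 0.06 of each other, and Tek with NPK, 3 months and 1 month. Cdh5 was ordered NP, 1 month, NPK, 3 months, and Tie1 NP, 3 months, 1 month, NPK. Eng alone had 1 month and NP at the bottom, then 3 months, and NPK on top. Adjacent means differed past the test between NP and NPK for Pecam1, Esam, Emcn, Vwf and Tek, between NPK and 1 month for Kdr, and between 3 months and NPK for Eng. Kdr was below the detection level in both NP and NPK, and the other neighbouring means did not pass.

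Within the shared chip, 3 months against 1 month called 0 of the 10 genes by limma, with 1 at an unadjusted p under 0.05 (all genes 17.7% called, either direction). The median change was 0.23 and 7 of 10 changes were positive, against a median of 0.02 for all genes. Cdh5 came nearest, 1.94-fold higher at 3 months (0.95, 95% interval 0.25 to 1.65, adjusted p = 0.0608), and its second probe gave 0.96 (adjusted p = 0.189). Both 3-month samples of Cdh5 lay above all 3 of 1 month, as they did for Cldn5 (0.68, interval -0.53 to 1.88) and Kdr (0.21, interval -0.26 to 0.68). These are 3 of 10 genes, close to the 25.4% of all genes whose 3-month samples both exceeded all 3 of 1 month. Without replicate 2 at 1 month Cdh5 passed (1.24, adjusted p = 0.022). Tek had the lowest change, -0.49 (interval -1.35 to 0.37, adjusted p = 0.507). With 3 and 2 samples these intervals leave room for changes of 2-fold and more in several genes.

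NP and NPK tumours were never on the same chip, so chip and genotype cannot be told apart. The contrast was read across chips, and the main fit took no account of chip. Levels were set against the mean of all NP samples. NPK replicates 1 to 5 and NPK replicates 6 and 7, on separate chips, were close for Eng (1.33 and 1.32) and Emcn (1.42 and 1.39). They were further apart for Cldn5 (1.22 and 0.82), Cdh5 (0.85 and 1.04) and the second probe of Pecam1 (0.61 and 0.17). NPK replicate 8, alone on its chip among these arrays, was lower, at 0.47 for Eng and 1.10 for Emcn. NP replicates 6 to 8 stood above NP replicates 1 to 5 for Cdh5, Tek, Emcn (9.14 against 8.60), Esam (9.67 against 9.31) and Vwf (9.11 against 8.74), and the chips were level for Eng (7.85 and 7.85). Without the chip of NP replicates 1 to 5, 4 of the 10 genes passed in place of 9: Pecam1 (1.27, limma adjusted p = 0.00406), Eng (1.22, 0.0017), Emcn (1.07, 0.0115) and Vwf (0.80, 0.0221). With chip as a random block 6 passed. The share of all genes passing was not counted in these fits, so their counts lack that comparison.

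**Figure D3:**
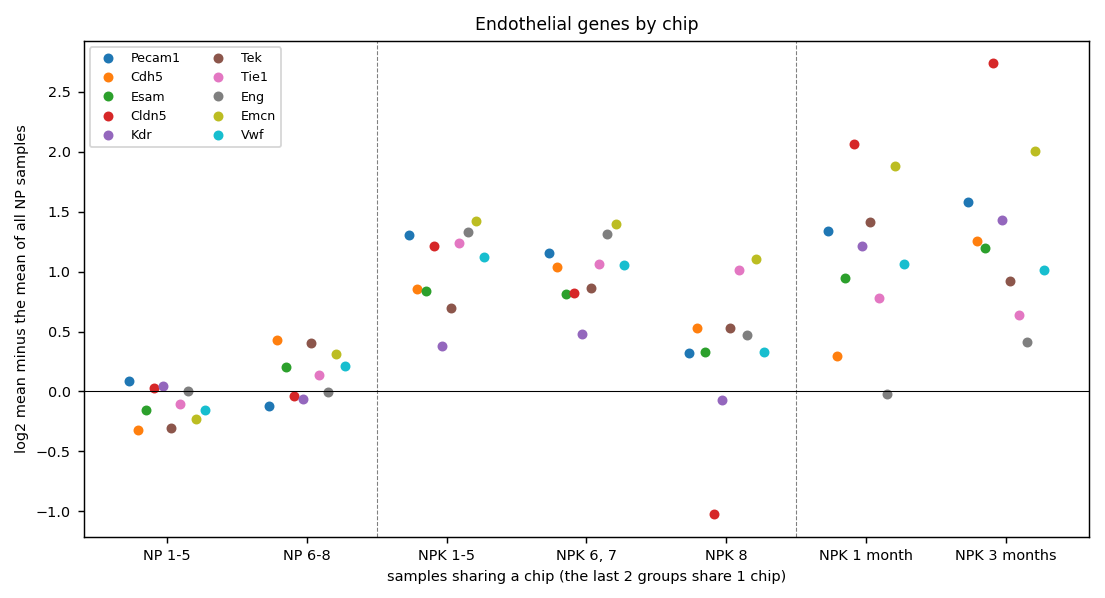
Mean log2 level of each endothelial gene on each chip, minus the mean of all NP samples; dashed lines part NP, NPK and the month-labelled arrays. Both larger NPK chips lie above both NP chips for every gene shown, and NPK replicate 8, alone on its chip, lies lower for most, down to -1.02 for Cldn5.

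The 10 genes also moved together from tumour to tumour inside a group. Deviations from the group mean averaged 0.59 over the 10 genes in NPK replicate 5, which was the highest NPK sample for 7 of them, and -0.59 in NPK replicate 8, which was the lowest for 7. Replicate 2 at 1 month was the highest of its group for 10 of 10, and replicate 2 at 3 months for 9 of 10. At 3 months there were only 2 samples, so their deviations mirror each other. The share of all genes highest or lowest in these samples was not counted. Each gene's deviations were set against the mean of the other 9 over 20 samples. Pearson's r was 0.85 for Vwf, 0.81 for Esam, 0.78 for Emcn, 0.71 for Pecam1, 0.70 for Cldn5, 0.70 for Tek, 0.63 for Cdh5, 0.60 for Tie1 and 0.55 for Eng. Kdr, undetected in 15 of these samples, had 0.06. The samples share chips and normalization, so these values are descriptions. The paired probes followed each other, with r of 0.84 for Cdh5 and 0.68 for Pecam1.

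**Figure D4:**
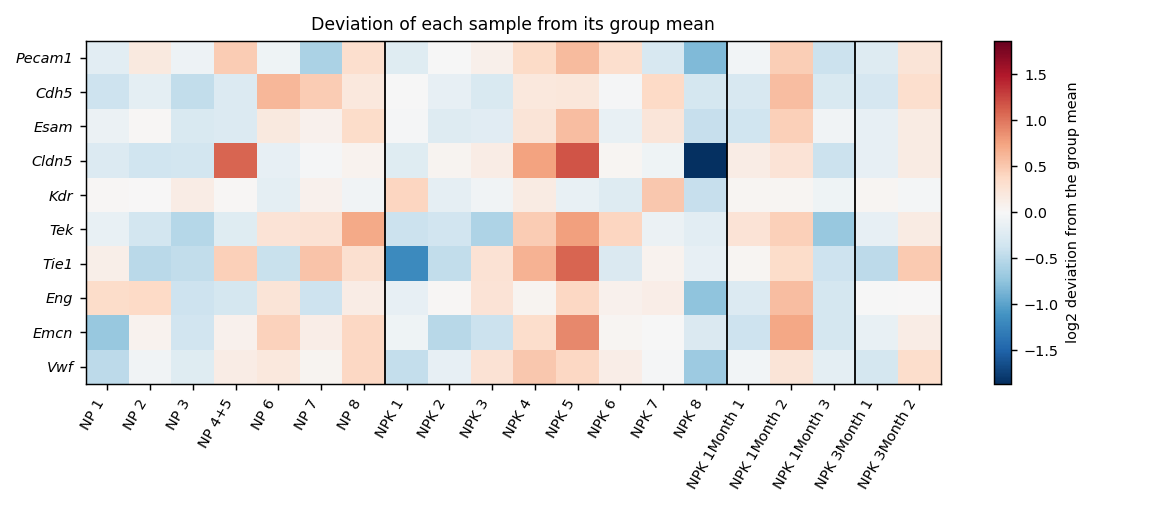
Deviation of each sample from its group mean, in log2 units, for the 10 endothelial genes (rows) in the 20 samples (columns; black lines part the groups). NPK replicate 5 and replicate 2 at 1 month are high across most rows, and NPK replicate 8 is low, most of all for Cldn5.

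Of the 12560 other genes, the one whose deviations were most like the mean of the 10 was Mmrn2 (r = 0.87), which encodes an extracellular matrix protein of endothelial cells. Next came Ahi1, Tcf25, Adcy4, Slit2, Shc1, Sphkap, Ephb4, Drp2 and Slc39a13, with r of 0.82 to 0.85 over the 20 samples. Mmrn2 was called higher in NPK than in NP (0.74, limma adjusted p = 0.0103), whereas Ephb4, a receptor of venous endothelium, had a change of 0.03 (adjusted p = 0.914). Among 29 other endothelial genes the median r was 0.48, and 13 (44.8%) had r over 0.5. Among all other genes the median was 0.02 and 8.46% did. Taken as the mean of a list, the other endothelial genes had r of 0.89 with the 10. Other tissues followed the 10 as well, with r of 0.61 for skeletal muscle, 0.51 for fibroblast and 0.47 for smooth muscle genes. The values were lower for seminal vesicle (0.29), luminal (0.15), pericyte (-0.01) and erythroid genes (-0.23).

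Other genes of the vessel wall put the 10 into context. Of 37 listed endothelial genes beside them, 29 were tested, and 14 were higher and 2 lower in NPK than in NP (median change 0.61). Mcam, an adhesion molecule of endothelium that smooth muscle and some tumours also carry, was 4.00-fold higher (limma adjusted p = 8.56e-06), with log2 changes of 1.12 and 1.00 by its other probes against 2.00 by this one. Selp, the P-selectin of activated endothelium and platelets, was 3.13-fold higher (adjusted p = 0.000173). Plvap, a protein of endothelial fenestrae, was 1.81-fold higher (adjusted p = 0.000423). Arhgef15, a guanine exchange factor, was 2.14-fold higher (adjusted p = 0.000204), but its other probes changed by 0.14 and 0.28. The VEGF receptor Flt1 rose by 1.01 and the synthase Nos3 by 1.42, whereas Ramp2, an adrenomedullin receptor subunit, fell by 0.75. Acvrl1, the partner of endoglin, was detected on 4 of 8 NPK arrays and was at least 1.36-fold lower (adjusted p = 0.0168). The number higher was 7 under median scaling, without the chip of NPK replicates 1 to 5, on the barcode series with both genotypes, and without the 5 NPK samples rich in seminal vesicle transcripts. With chip as a random block 8 were higher and 0 lower, with Flt1, Ramp2 and Acvrl1 among the calls lost and Mcam, Selp, Plvap, Arhgef15 and Nos3 among those that passed.

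Ligands were measured in the same tumours. Of 8 VEGF and angiopoietin ligands, 3 were higher in NPK and 0 lower: Vegfd (2.60-fold, limma adjusted p = 0.00218), Angpt4 (at least 1.86-fold, adjusted p = 0.00451) and Pgf (at least 1.29-fold, adjusted p = 0.0163). Angpt4 and Pgf were detected on 0 and 1 of the NP arrays. Of 8 co-receptor and tip cell genes 3 were higher and 1 lower. Aplnr, the apelin receptor, rose 2.42-fold (adjusted p = 0.00441), Pdgfb, which recruits pericytes, 2.03-fold (adjusted p = 0.00493), and the VEGF co-receptor Nrp1 1.63-fold (adjusted p = 0.0323). The Nrp1 call held in 10 of 15 fits with a sample left out, and its other probes changed by 0.12 and 0.64. With chip as a random block Angpt4, Pgf, Aplnr, Pdgfb and Nrp1 all lost their calls, and Vegfd passed.

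Of 9 genes of BMP and TGF-beta signalling, the input of endoglin, 2 were higher and 2 lower in NPK. Tgfb1 rose 2.43-fold (limma adjusted p = 0.000135) and Tgfb3 2.27-fold (adjusted p = 0.000908), and Tgfb2 was 4.80-fold lower (adjusted p = 0.000106). In the Notch list of 7, which directs the choice between tip and stalk cells, 3 were higher and 2 lower. Notch1 was 2.32-fold lower (adjusted p = 1.89e-05) and Notch4, the endothelial Notch receptor, 1.77-fold higher (adjusted p = 0.00539), though its other probe changed by -0.55. Heyl passed (adjusted p = 0.00464) and was detected on 0 of 8 NP arrays, so no fold is given. Vessel growth inhibitors rose in 4 of 7 cases and fell in 0. Thbs2, a thrombospondin, rose 4.06-fold (adjusted p = 0.000692), Col18a1, the source of endostatin, 2.36-fold (adjusted p = 0.000498, other probes 1.08 and 0.02), and Serpinf1 3.13-fold (adjusted p = 0.000965), with the other Serpinf1 probe at -0.62.

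Vessel type genes moved both ways between the genotypes. Of 6 arterial genes 2 were higher and 2 lower: Gja4 and Gja5, connexins of arterial endothelium, rose 2.22-fold and 1.84-fold (limma adjusted p = 0.00055 and 0.00463; other Gja5 probes 0.15 and 1.13), and Efnb2, which is also an epithelial ephrin, was 3.09-fold lower (adjusted p = 6.8e-06). Of 4 venous genes 2 were higher, Selp again and Ackr1 (2.11-fold, adjusted p = 0.0476, a call that held in 4 of 15 fits with a sample left out). Of 5 lymphatic genes Pdpn alone was called (1.70-fold higher, adjusted p = 0.0465, held in 5 of 15), while Lyve1 and Ccl21a had changes of -0.39 and 0.45. Of 9 pericyte genes 2 were higher, Cspg4 (1.71-fold, adjusted p = 0.0348, held in 5 of 15) and Rgs4 (2.46-fold, adjusted p = 0.0391, held in 6 of 15). Pdgfrb, the receptor for PDGF-B, had a change of 0.98 and adjusted p = 0.0541. With chip as a random block Gja5, Ackr1, Pdpn, Cspg4 and Rgs4 lost their calls, and Gja4, Efnb2 and Selp passed.

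**Figure D5:**
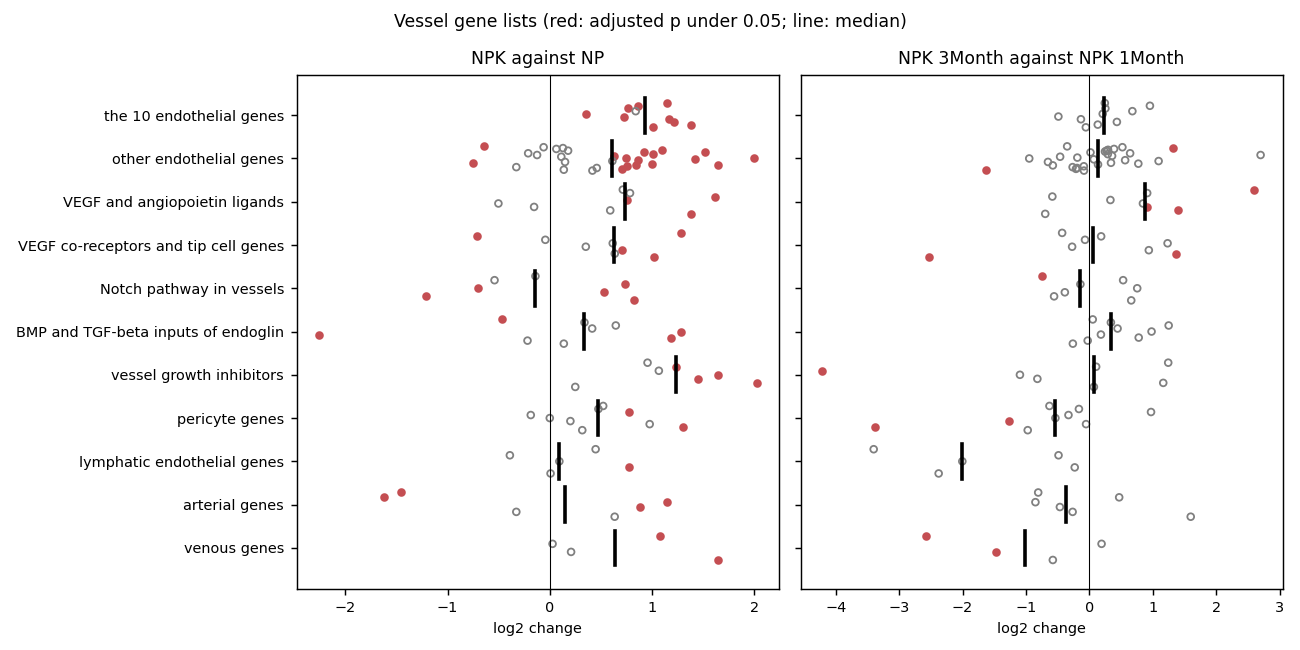
Log2 change of every tested gene in the vessel lists (points; red where the limma adjusted p was under 0.05) for NPK against NP and for 3 months against 1 month, with the list median as a line. The 10 endothelial genes lie to the right of 0 in the genotype contrast (median 0.93) and around 0 between months (median 0.23).

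Between the months some genes of the surrounding lists passed the test, in both directions. Tissue markers differed as well: 5 of 8 seminal vesicle genes were lower at 3 months (median change -6.30, mean levels of 11.0 to 14.5 at 1 month and 5.61 to 7.69 at 3 months) and 5 of 6 skeletal muscle genes (-3.46, levels of 9.99 to 10.7 and 6.71 to 6.88). Smooth muscle genes had a median change of -1.79, with 0 of 6 passing and 2 at an unadjusted p under 0.05. Of 6 luminal genes 2 were lower, and the luminal protease gene Tmprss2 was 14.2-fold lower (limma adjusted p = 0.000665).

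Their part in the vessel lists was not tested. Only the fit with seminal vesicle and muscle covariates touched on it. Those levels did not overlap between the months, so a call lost in that fit cannot be credited to tissue or to stage. That fit ended the calls of Apold1, Tmem204, Angpt1, Vegfb, Vegfc, Pdgfb, Notch3, Nr2f2, Ackr1 and Hes1 between the months, while Rgs4, Cxcl10 and Nrp2 passed in it. Of the 29 other endothelial genes 1 was higher at 3 months, Apold1 (at least 2.06-fold, limma adjusted p = 0.00571), and 1 lower, Tmem204 (3.11-fold, adjusted p = 0.0414). Gpihbp1, the lipase anchor of capillaries, had 2.70 (adjusted p = 0.0624) and Mmrn2 -0.95 (adjusted p = 0.0886). Of 8 ligands 3 were higher and 0 lower at 3 months: Angpt1, the ligand that activates TIE2, by 6.05-fold (adjusted p = 0.00149), Vegfb by 1.87-fold (adjusted p = 0.0126) and Vegfc by 2.62-fold (adjusted p = 0.0412). Pdgfb was 5.77-fold lower at 3 months (adjusted p = 0.000724). Angpt1 and Pdgfb passed in 5 of 5 fits that left out a sample, Apold1 and Vegfb in 4 of 5, Vegfc in 2 of 5 and Tmem204 in 1 of 5. The VEGF co-receptor Nrp2 was at least 2.02-fold higher (adjusted p = 0.0448, held in 1 of 5).

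At 3 months Rgs4 was 10.5-fold lower than at 1 month (limma adjusted p = 0.00804) and Notch3, the Notch receptor of mural cells, 2.40-fold lower (adjusted p = 0.0298), each in 3 of 5 fits with a sample left out. Of the 9 pericyte genes these 2 fell and 0 rose. Of 4 venous genes Nr2f2, a regulator of venous identity, was 2.77-fold lower (adjusted p = 0.0078, held in 4 of 5) and Ackr1 at least 5.15-fold lower (adjusted p = 0.0181, held in 2 of 5). The chemokine Cxcl10, listed with the growth inhibitors, was 18.5-fold lower (adjusted p = 0.00341) by a probe whose partner changed by -0.23. Hes1, a Notch target, was 1.69-fold lower (adjusted p = 0.0212, held in 3 of 5). For lymphatic, arterial and BMP or TGF-beta genes limma called 0, with 3 of 5, 2 of 6 and 2 of 9 at an unadjusted p under 0.05. Their smallest adjusted p belonged to Ccl21a (-3.40, 0.0568), Unc5b (1.60, 0.127) and Tgfb1 (0.98, 0.071).

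Markers of other cells moved with the genotype contrast too. Between NP and NPK, 5 of 6 smooth muscle genes were higher and 0 lower (median change 1.79), with mean levels of 7.30 to 9.39 in NP and 8.44 to 12.3 in NPK. Of 6 fibroblast genes 3 were higher and 0 lower (median 1.50, levels of 7.87 to 9.48 and 9.31 to 11.7). Of 8 seminal vesicle genes 5 were higher, with levels of 4.88 to 8.16 in NP and 6.47 to 14.6 in NPK. Platelet genes, which matter for Vwf, Esam and Selp, had 0 of 5 higher and 1 lower, with levels of 5.83 to 7.38 and 5.52 to 6.51. The gene called lower was detected on 1 of 8 NPK arrays and another on 0 of 8, so part of this list was barely measured. Of 5 leukocyte genes 0 were higher and 2 lower, of 3 erythroid genes 0 passed, and of 6 luminal genes 2 were lower. The part of these tissues in the endothelial values was not tested beyond 2 fits: without the 5 NPK samples rich in seminal vesicle transcripts 7 of the 10 genes passed, and with seminal vesicle and muscle covariates 7 passed.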

How the data were processed

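RNA of 21 mouse prostate tumour samples was measured on Illumina bead arrays. Magnetic beads were used to extract it and an Illumina TotalPrep kit to amplify it, per the labels' protocols; BeadStudio and lumi appear, without versions, per the submitters' processing notes. The deposited table holds linear bead intensity per probe, background-subtracted, as values below 0 show, and not normalized between arrays. The authors' processed values, deposited on a log2 scale, had upper quartiles of 8.60 to 8.64 for NP and NPK but 8.34 to 8.35 for the month-labelled arrays. These sets were taken as separately normalized and used only as an alternative, each by itself; the transform and centring of these values stay unknown.

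Control probes were not used here, so the planned correction with them was replaced by normexp, in which the background mean was set to 0 and the noise SD was estimated from values below 0 (8.59 to 26.1 intensity units). After an offset of 16, quantile normalization and log2, the 24217 probes detected on at least 3 arrays entered 1 limma fit (version 3.58.1, R 4.3.3) of all 4 groups. It had 16 residual degrees of freedom. Tests were two-sided and adjusted over all these probes by Benjamini-Hochberg, with a threshold of 0.05. Each gene was represented by its brightest probe on average, for 12570 genes; the platform annotation named 34767 probes with 1 symbol, 18 with several and 10341 with none. NP replicates 4 and 5 entered as their mean. A fold is a lower bound where the dimmer group was detected on no more than 50% of its arrays. The bound sets the brighter mean against the dim probe's values, each raised to the lowest detected level of its array where it lay under it. Intervals are at 95%.

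The members, the gene lists and the tests were chosen with earlier results of these data known. The text names all members and the 10 genes with the most similar deviations. It also names 4 other endothelial genes and up to 3 genes of each other vessel list, by smallest adjusted p. Flt1, Nos3, Ramp2, Acvrl1, Pdgfrb, Lyve1 and, between the genotypes, Vegfa were named after their values were seen. Alternatives changed the offset, normalization, filter, probe choice, samples, chips, weights, covariates and pairing. The fits were tested on simulated data. The fixed genes for the engineered loci were not analysed here. Promoter sequences came from RefSeq (GRCm38.p6).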

Additional observations from a re-analysis of the deposited data

Results flagged for a closer look

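Single samples stood far from the rest of their group for Cldn5, by a test of the gap between the extreme sample and its neighbour. Of 24 probe and group sets tested, 2 were flagged, and chance flags about 1 in 20. In NP the mean of replicates 4 and 5 was 8.35, with the next sample at 7.34 (gap 0.699 of the range). In NPK replicate 8 was at 6.25, with the next at 7.88 (gap 0.538 of the range). Replicate 8 was the only NPK sample on its chip and was the lowest NPK sample for 7 of the 10 genes; the part of its chip was not tested. Leaving either out brought the Cldn5 change between the genotypes past the threshold.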

How the results depend on the processing

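No called change of the 10 genes reversed under any alternative; changes that passed neither way sometimes changed sign (11 of 169 values between the months). Between NPK and NP the count of genes passing was 9, 8 to 10 with a sample left out and 4 to 10 under other settings, 4 being the value without the chip of NP replicates 1 to 5. Median scaling moved the median of all genes to -0.38 and left 755 genes higher (6.01% of all genes) and 5421 lower. It gave 6 of the 10 higher, with a median change of 0.48. Between 3 months and 1 month the count was 0, 0 to 1 with a sample left out, and 1 with an offset of 50, median scaling or the tissue covariates. At 1 month against NP it was 7 (7 to 7 with a sample left out) and 1 with the covariates. At 3 months against NP it was 8 (5 to 8). For NPK against 1 month it was 2 (2 to 3) and 5 with array weights or the replicate block, and against 3 months 3 (1 to 3) and 5 under median scaling. Apart from median scaling, the share of all genes passing was not counted in the alternatives. The cause of these shifts in the counts was not tested.

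Same-numbered NP and NPK samples shared only a number: over 7 pairs the correlation of their deviations was -0.11 to 0.06, and 0 samples correlated best with their own number. With the replicate block 9 of the 10 genes passed between NPK and NP. The replicate block moved the count by over 1.5 times for NPK against 1 month alone, among the comparisons given. Probe brightness limits Kdr and Tie1, whose NP values lay at or near the detection level.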
